A study of Mus musculus with 2 samples.

Results

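The 39 genes described here encode the enzymes of glycolysis, the carriers that bring glucose into the cell and lactate out of it, and components and targets of the hypoxia-inducible factors (HIFs). They form a list by name, 24 for glycolysis and 15 for the HIF pathway, and where a gene had several probe sets the one with the highest mean of both arrays stood for it. Of the 39, 36 had at least 1 probe set annotated to that gene alone, out of 19938 genes so measured, and 32 passed a filter on level. Expression was measured on Affymetrix whole-transcript arrays in dermal cells from the back skin of C57BL/6 pups taken on postnatal day 0. Both groups were grown for 24 h in medium with 10% fetal bovine serum and then kept for 48 h with 10 nM siRNA, which was a control siRNA in one group and siRNAs against β-catenin in the other. An siRNA is a small duplex whose guide strand directs the cutting of a complementary transcript, and β-catenin, the product of Ctnnb1, serves both in cell junctions and as the transcriptional arm of Wnt signalling. There was 1 array per group, so no value below has a replicate error, no difference could be tested, and each is the subtraction of 2 numbers. The labels do not say how many pups or cultures each array stood for, and both groups were primary cultures that can hold several cell types.

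Glycolysis splits glucose into pyruvate in the cytosol and yields ATP without oxygen. When pyruvate is turned into lactate instead of entering mitochondria, the lactate leaves the cell through monocarboxylate transporters. HIFs are pairs of an oxygen-sensitive α subunit and a stable partner. With oxygen present, prolyl hydroxylases mark the α subunit for destruction by the VHL ubiquitin ligase. When oxygen is scarce the α subunit persists, binds short DNA motifs and raises transcription of most glycolytic enzymes, of glucose transporters and of genes for vessel growth, mitophagy and pH control. Skin is a tissue of low oxygen tension, and dermal fibroblasts in culture use glycolysis heavily.

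The HIF-binding core is ACGTG or GCGTG, and the promoters of the members that were at least 1.5-fold lower are shown because all 6 of them hold it. The sequences are those of RefSeq on GRCm38.p6, run 5′ to 3′ on the strand of the gene, cover the 250 bases before an annotated start, and have the core, read on either strand, in capitals. For Pfkfb3, which has 2 windows, the one with the E-box CACGTG, a motif that contains ACGTG on both strands, is printed.
Egln3, chr12:54203875-54204124, minus strand: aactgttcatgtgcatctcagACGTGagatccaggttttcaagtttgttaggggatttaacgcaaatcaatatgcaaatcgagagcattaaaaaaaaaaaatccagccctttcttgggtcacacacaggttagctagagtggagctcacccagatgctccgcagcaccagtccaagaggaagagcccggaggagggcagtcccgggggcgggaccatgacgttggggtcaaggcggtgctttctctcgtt
Pfkfb3, chr2:11502091-11502340, minus strand: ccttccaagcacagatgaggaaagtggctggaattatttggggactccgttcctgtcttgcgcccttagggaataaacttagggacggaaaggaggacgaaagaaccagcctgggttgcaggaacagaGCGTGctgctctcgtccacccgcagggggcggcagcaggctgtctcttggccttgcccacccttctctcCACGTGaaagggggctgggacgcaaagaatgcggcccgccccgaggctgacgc
Slc16a3, chr11:120948817-120949066, plus strand: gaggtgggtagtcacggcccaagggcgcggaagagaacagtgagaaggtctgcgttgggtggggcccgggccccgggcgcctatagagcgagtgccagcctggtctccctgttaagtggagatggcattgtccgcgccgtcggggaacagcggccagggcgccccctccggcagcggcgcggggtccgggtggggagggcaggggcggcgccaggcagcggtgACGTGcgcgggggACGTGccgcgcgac
Slc2a1, chr4:119108495-119108744, plus strand: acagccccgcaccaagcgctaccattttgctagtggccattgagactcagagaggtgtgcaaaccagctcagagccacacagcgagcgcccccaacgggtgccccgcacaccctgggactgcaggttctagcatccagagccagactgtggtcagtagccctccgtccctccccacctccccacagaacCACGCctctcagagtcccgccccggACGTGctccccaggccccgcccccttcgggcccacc
Hk2, chr6:82774455-82774704, minus strand: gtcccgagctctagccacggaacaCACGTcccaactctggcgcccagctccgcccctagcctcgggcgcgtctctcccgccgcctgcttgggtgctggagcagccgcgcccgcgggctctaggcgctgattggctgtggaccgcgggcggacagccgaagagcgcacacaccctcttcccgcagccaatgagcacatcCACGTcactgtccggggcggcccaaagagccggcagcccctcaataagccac
Pfkl, chr10:78009808-78010057, minus strand: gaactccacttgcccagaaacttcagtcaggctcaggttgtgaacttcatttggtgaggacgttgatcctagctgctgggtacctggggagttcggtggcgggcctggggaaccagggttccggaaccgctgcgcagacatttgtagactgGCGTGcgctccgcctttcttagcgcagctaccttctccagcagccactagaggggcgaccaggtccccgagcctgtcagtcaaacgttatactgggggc

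The motif was common among the members as a whole and was not limited to those with low values. Promoter windows were found for 35 of the 39 members, and 30 of these belonged to genes that passed the level filter. The core ACGTG or GCGTG stood in at least 1 window of 28 of those 30, against 63.5% of 8279 kept genes with a window and 41.5% of all 27025 genes with one. The narrower motif ACGTG stood in 19 of the 30, against 26.0% of kept genes. Members had more windows each than kept genes, 1.51 against 1.28 on average, which raises the chance of a match in any of them, whereas the median GC content of the windows was 60.4% in both. Many members were listed because they are known HIF targets. The core also stood 2 times in the window of Adm, a member with a higher value after β-catenin siRNA. The TCF motif, through which β-catenin acts, was searched as CTTTGAT or CTTTGAA on both strands and was in 0 of the 30 kept members' windows and in 6.29% of kept genes. These are matches of letters in a short window and say nothing of binding.

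The target was lower and the cells carried fibroblast transcripts. The log2 value of Ctnnb1 was 10.48 with control siRNA and 9.34 with β-catenin siRNA, or 45.2% of the control signal. All 20 listed markers of dermal fibroblasts passed the level filter, which asked that the higher of the 2 values reach 5.13, the median of all gene means. Of markers of other cell types, 13 of 22 for keratinocytes, 7 of 11 for pericytes and smooth muscle, 4 of 12 for endothelial cells, 3 of 9 for melanocytes, 2 of 12 for skeletal muscle, 2 of 9 for adipocytes and 1 of 14 for macrophages passed it, and none did of 6 for Schwann cells, 8 for mast cells and 7 for T cells. Over all measured markers, kept or not, the median difference was 0.20 for the 22 of keratinocytes, 4 of them lower. It was -0.32 for the 11 of pericytes and smooth muscle, 7 of them lower, and 0.03 for the fibroblast markers. Among kept markers alone, the keratinocyte median was 0.40, with 12 of 13 higher. Krt18 (4.69 and 5.25) and Epcam (4.76 and 5.26) reached the filter only with β-catenin siRNA, so both had to count as higher. Of these 13, 4 gained 1.5-fold or more in signal (30.8%, against 2.76% of all kept genes) and 1 lost as much. The median of the 7 kept pericyte and smooth muscle markers was -0.33, with 6 lower and 1 higher. Of these 7, 2 lost 1.5-fold or more (28.6%, against 1.84% of all kept genes), 1 of them 2-fold or more, and 0 gained 1.5-fold. Of the 20 fibroblast markers, 3 (15%, against 2.76% of all kept genes) gained 1.5-fold or more, namely Dcn, Lum and Pdgfra. Of the same 20, 0 lost as much, against 1.84% of all kept genes. In such bulk samples fewer cells of a type and less RNA per cell cannot be told apart, and the part of these shifts in the differences below was not tested.

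Most of the glycolysis and HIF genes were lower after β-catenin siRNA, with a more negative median among the glycolysis genes than among the HIF genes. Of the 32 kept members, 25 were lower by some amount and 7 higher, where 52.8% of all 10197 kept genes were lower and 45.8% higher. At least 1.5-fold lower were 6 of the 32, or 18.8%, against 1.84% of all kept genes, and 0 were at least 1.5-fold higher, against 2.76% of all kept genes. A decrease of 0.25 or more on the log2 scale was found for 21 of the 32 members (65.6%) and for 14.9% of all kept genes. The median difference was -0.34 over the kept members and -0.02 over all kept genes. It was -0.43 for the 20 kept glycolysis members, 17 of them lower (18 with the Hk1 probe set near its own gene). For the 12 kept HIF members it was -0.20, 8 of them lower. The HIF median depended on the filter and was -0.07 over all 15 measured HIF members, 9 of them lower, and -0.12 with a stricter filter, under which Egln3 and Higd1a were lost. All 32 kept members reached the filter on both arrays. For scale, kept genes had a robust SD of 0.22 in their differences, which includes array noise, culture differences and any effect of the siRNA alike.

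**Figure D1:**
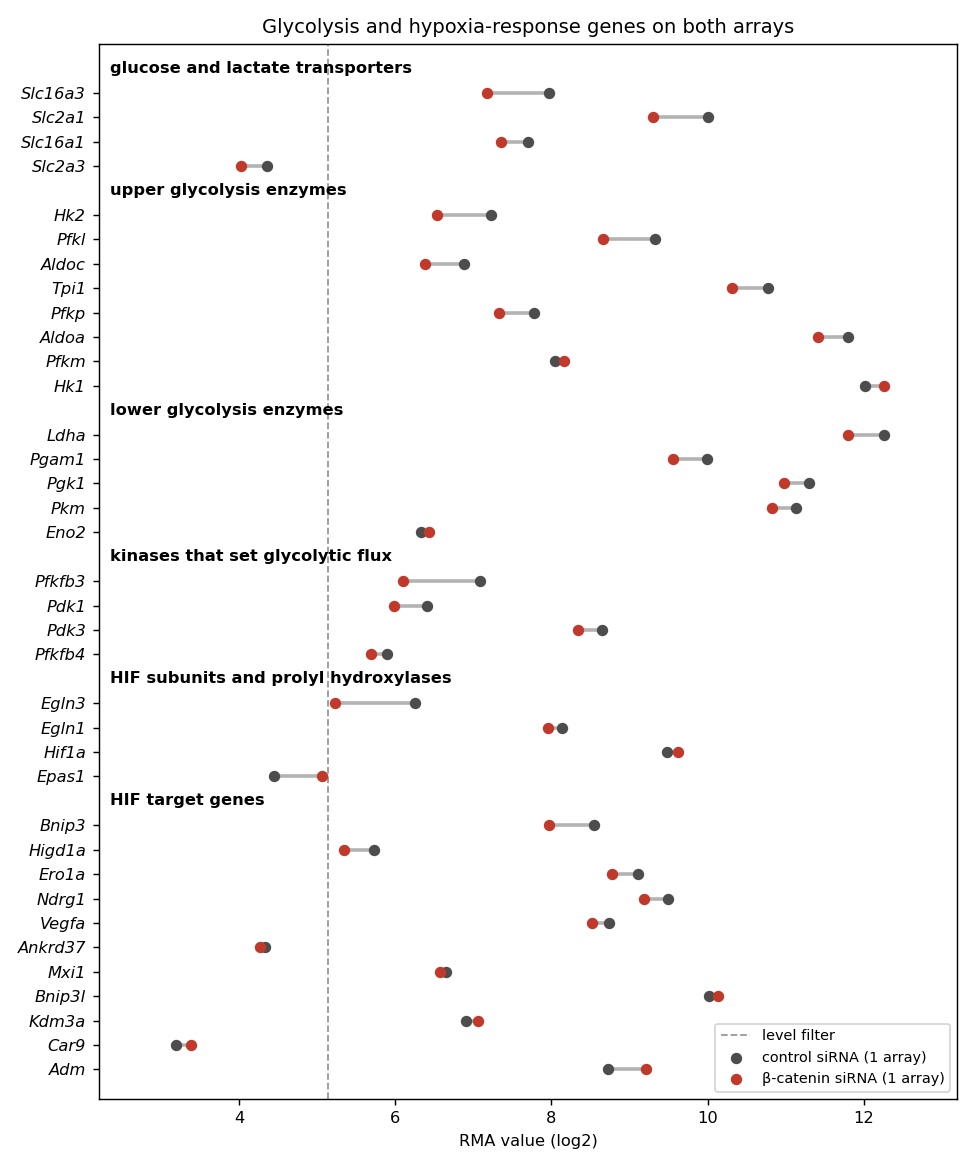
Log2 RMA values (horizontal axis) of the 36 measured members on the control siRNA array (dark points) and the β-catenin siRNA array (red points), 1 array each, with a dashed line at the level filter of 5.13. Red points lie to the left of dark points for 27 of the 36 genes, and Slc2a3, Epas1, Ankrd37 and Car9 lie wholly below the filter; levels of different genes are not comparable, since each has its own probes.

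Transporters of glucose and lactate were lower. Slc2a1, which encodes the ubiquitous glucose transporter GLUT1, had a log2 value of 10.00 with control siRNA and 9.30 with β-catenin siRNA, so its signal was 61.6% of the control. Slc16a3, which encodes the lactate exporter MCT4, had values of 7.97 and 7.17, a difference of -0.80 or 57.4% of the control. Slc16a1, which encodes MCT1, a carrier that moves lactate in either direction, had values of 7.70 and 7.35 and a difference of -0.35. Of the lactate carriers, Slc16a3, a known HIF target, had the larger difference, but a link to HIF was not tested. Slc2a3, the high-affinity transporter GLUT3 of neurons, had values of 4.36 and 4.03, both under the level filter, so its difference of -0.33 rests on dim signal.

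The kinases that set the rate of glycolysis and the fate of pyruvate were all lower, to very different degrees. Pfkfb3 makes fructose 2,6-bisphosphate, the strongest activator of phosphofructokinase, and had log2 values of 7.09 with control siRNA and 6.10 with β-catenin siRNA. Its signal was 50.2% of the control, and its difference had rank 36 from the lowest among the 10197 kept genes. Pfkfb4, a paralog with a more balanced kinase and phosphatase activity, had values of 5.90 and 5.69, a difference of -0.21. The pyruvate dehydrogenase kinases keep pyruvate out of mitochondria by switching off pyruvate dehydrogenase. Pdk1, a HIF target, had values of 6.40 and 5.98 (difference -0.42), and Pdk3 had values of 8.65 and 8.34 (difference -0.31).

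In the upper part of glycolysis, from glucose to triose phosphate, 6 of 8 kept enzyme genes were lower (75%, against 52.8% of all kept genes). Hk2, the inducible hexokinase that traps glucose in the cell, had log2 values of 7.22 and 6.53 with control and β-catenin siRNA, a difference of -0.69 or 61.9% of the control. Pfkl, the liver-type subunit of phosphofructokinase, which catalyses the committed step, had values of 9.33 and 8.65 (difference -0.67). The platelet-type subunit Pfkp had values of 7.77 and 7.33 (difference -0.44). The muscle-type subunit Pfkm stood apart, with 8.05 with control siRNA and 8.16 with β-catenin siRNA. Aldolases split the six-carbon sugar, and Aldoa (11.79 and 11.41) and Aldoc (6.88 and 6.38) differed by -0.38 and -0.50. Tpi1, which interconverts the resulting trioses, had values of 10.77 and 10.31, or 72.9% of the control.

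Hk1, the constitutive hexokinase, was higher by the probe set that the rule chose and lower by the one annotated through its RefSeq transcripts. By the rule of taking the probe set with the highest mean it read 12.01 with control siRNA and 12.26 with β-catenin siRNA, a difference of 0.25. That probe set was annotated to Hk1 through a single GenBank sequence, which was also listed for 16 probe sets shared with Rpl17, a gene for a protein of the large ribosomal subunit. Probe sets next to it in identifier order lay mostly on chromosome 14, whereas the gene lies on chromosome 10. The 16 shared probe sets had control values of 10.03 to 12.56, and 0 of them were lower. The value by the rule may therefore not be that of Hk1. The other Hk1 probe set, annotated through RefSeq transcripts of the gene, read 7.68 and 7.48, a difference of -0.20. With that probe set 18 of the 20 kept glycolysis members were lower, and the exceptions were Pfkm and Eno2.

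In the lower part of glycolysis, from triose phosphate to lactate, 4 of 5 kept enzyme genes were lower (80%, against 52.8% of all kept genes). Each of the 4 was lower by less than 1.5-fold. Ldha, which turns pyruvate into lactate, had log2 values of 12.26 and 11.80 with control and β-catenin siRNA, or 72.4% of the control. Pgam1, phosphoglycerate mutase, had values of 9.99 and 9.56 (difference -0.43). Pgk1, which makes the first ATP of the pathway, had values of 11.30 and 10.98 (difference -0.32), and Pkm, the pyruvate kinase gene, 11.13 and 10.82 (difference -0.31). Eno2, the neuronal enolase, had values of 6.33 and 6.43 and was the exception, so that the 5 enzymes spanned 0.57 on the log2 scale. Gapdh, used in many studies as a reference transcript, was measured by 25 probe sets that also list other symbols. All 25 were lower, by -0.14 to -0.09 on the log2 scale, a smaller difference than those of the 4 lower enzymes above. They are not 25 independent measurements, since several have identical values on both arrays. Gpi1 and Eno1 were not analysed here.

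**Figure D2:**
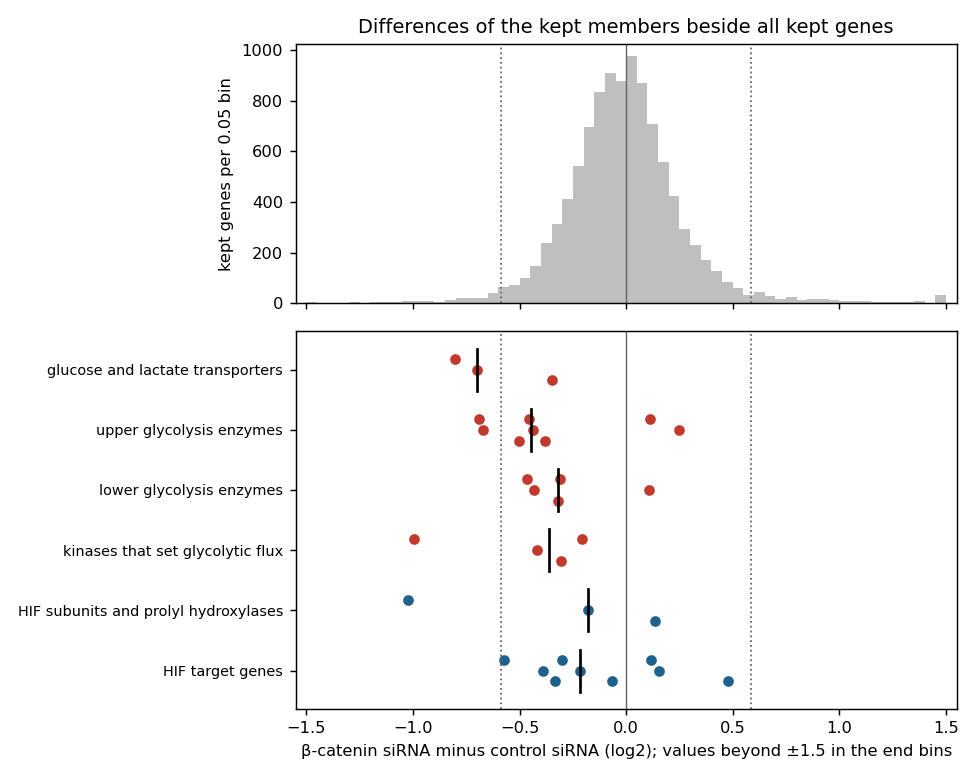
Top, number of all 10197 kept genes by difference, β-catenin siRNA minus control siRNA on the log2 scale; bottom, the 32 kept members by role, 1 point per gene, with a black bar at each role's median and dotted lines at 1.5-fold. Medians run from -0.70 for the transporters to -0.18 for the HIF subunits and hydroxylases, all below the middle of the histogram, and no member lies beyond the right dotted line.

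Among the HIF regulators, the hypoxia-induced hydroxylase Egln3 differed far more than the subunits themselves. Egln3 had log2 values of 6.25 with control siRNA and 5.23 with β-catenin siRNA, or 49.3% of the control, the second value being close to the level filter of 5.13, and was the only member at least 2-fold lower, a size reached by 0.333% of all kept genes. Its difference had rank 33 from the lowest. Egln1, the main oxygen sensor of most cells, had values of 8.13 and 7.96 (difference -0.18). Hif1a, the α subunit best known for driving glycolytic genes, had values of 9.49 and 9.62 (difference 0.14). Its activity is set largely by protein stability, which an array of transcripts does not measure. Epas1, which encodes HIF-2α, had values of 4.45 and 5.06, both under the level filter, so its difference of 0.61 rests on dim signal.

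HIF target genes outside glycolysis were divided, with 6 of 9 kept genes lower (66.7%, against 52.8% of all kept genes) and 3 higher. None reached 1.5-fold, a size at which only 1.84% of all kept genes were lower and 2.76% higher. Bnip3, a mitophagy receptor, came closest, with log2 values of 8.54 and 7.97 with control and β-catenin siRNA (1.49-fold lower). Higd1a, a mitochondrial protein of the respiratory chain, had values of 5.73 and 5.34, the oxidase of disulfide formation Ero1a, listed as Ero1l, 9.11 and 8.77, and the stress-induced gene Ndrg1 9.49 and 9.19, with differences from -0.39 to -0.30. Vegfa, the vessel growth factor, had values of 8.74 and 8.52 (difference -0.22), and Mxi1, an antagonist of MYC, 6.64 and 6.58 (difference -0.07). Adm, which encodes the vasodilator peptide adrenomedullin, went the other way, from 8.73 to 9.21, or 139% of the control, the largest positive difference of a kept member. Kdm3a, a histone demethylase, had values of 6.91 and 7.06, and Bnip3l, the mitophagy receptor NIX, 10.02 and 10.14. Car9, a carbonic anhydrase of the cell surface that is widely used as a hypoxia marker, had values of 3.20 and 3.39, and Ankrd37 had 4.33 and 4.26, so both lay under the level filter on both arrays.

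Some families of paralogs spanned a wide range of differences and others a narrow one. The phosphofructokinase subunits spanned 0.78 on the log2 scale, between Pfkl and Pfkm, and the aldolases 0.12. Hk1 and Hk2 lay 0.94 apart with the Hk1 probe set of the highest mean and 0.50 apart with the other. The prolyl hydroxylases spanned 0.84, with Egln2 (difference -0.18) close to Egln1 and both well short of Egln3. Bnip3 and Bnip3l differed by 0.69 in their response. A list of other isozymes, transporters and related genes of glycolysis, which are not among the 39 genes, was mostly lower too. Of its 15 kept genes 13 were lower (86.7%, against 52.8% of all kept genes), 1 higher and 1 identical on both arrays. Their median difference was -0.17. Bpgm, which makes 2,3-bisphosphoglycerate, was the only one at least 1.5-fold lower (6.67% of the list, against 1.84% of all kept genes). Its difference was -0.74 on the log2 scale, or 59.9% of the control. The muscle enolase Eno3 had values of 6.99 and 6.44 (difference -0.55), the reverse of Eno2, and Tigar, a phosphatase that opposes Pfkfb3, had 6.63 and 6.13 (difference -0.50). Ldhb, the subunit of lactate dehydrogenase that prevails in heart, read 7.27 on both arrays, one of 140 kept genes with identical values. Pdk2, which is counted below with the genes for entry of pyruvate into mitochondria, had a difference of 0.16. Pfkfb2 differed by -0.12, Adpgk, an ADP-dependent glucokinase, by -0.17, and Pgam5, a mitochondrial phosphatase of the mutase family, by -0.17. Of the other glucose transporters, Slc2a6 differed by -0.38 and Slc2a8, Slc2a10 and Slc2a13 by -0.15 to -0.23, against 0.03 for Slc2a9. The monocarboxylate transporter gene Slc16a7 differed by -0.39, Bsg, which encodes the chaperone of MCT1 and MCT4, by -0.07, and Pgp, a phosphatase that clears side products of glycolysis, by -0.41. Slc16a7 passed the level filter only on the control array (5.35, against 4.97 with β-catenin siRNA), so it had to count among the 13 lower.

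**Figure D3:**
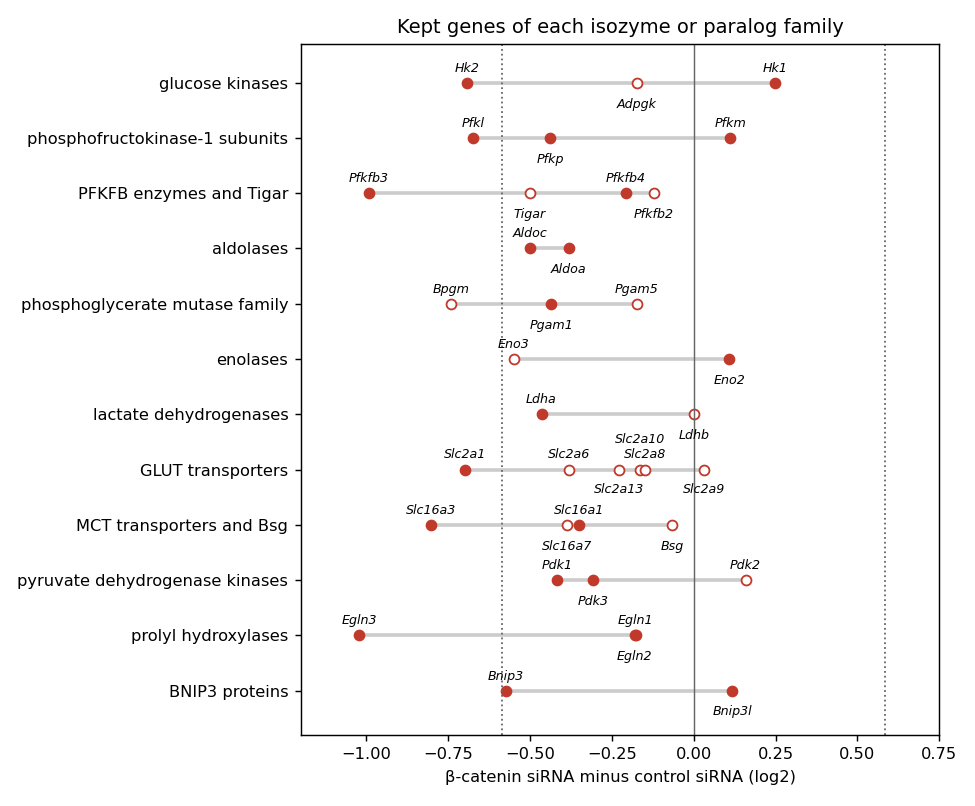
Difference, β-catenin siRNA minus control siRNA on the log2 scale, of kept genes in each family, with filled points for the listed members, open points for other isozymes or partners, and dotted lines at 1.5-fold. Within 6 of the 12 families drawn, a gene with a negative difference stands beside one with a positive difference, of which Hk1, Pfkm, Eno2, Slc2a9, Pdk2 and Bnip3l are the positive ones; with the other Hk1 probe set (-0.20) the number is 5.

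In 6 lists of related metabolic genes, 64 of 87 kept genes were lower, where 52.8% of all kept genes were, with a median difference of -0.11. At least 1.5-fold lower were 3 of the 87 (3.45%) and 0 were at least 1.5-fold higher, against 1.84% and 2.76% of all kept genes. Among the 87, Slc16a7 passed the level filter only on the control array, and Pygl and Pdp2 only on the β-catenin siRNA array. The list for the tricarboxylic acid cycle, which also holds malic enzymes and cytosolic isozymes such as Idh1 and Mdh1, had 19 of 21 kept genes lower. None reached 1.5-fold, and the median of that list, -0.12, was far closer to 0 than that of the glycolysis members. Its largest differences were those of Idh3a (-0.33), Mdh2 (-0.30) and Me1 (-0.29), which encode an isocitrate dehydrogenase subunit, malate dehydrogenase and malic enzyme. Genes for the entry of pyruvate into mitochondria had no common direction, with 5 of 11 lower and a median of 0.04. Pcx, pyruvate carboxylase, differed by -0.45 and Pdpr, a regulator of pyruvate dehydrogenase phosphatase, by 0.19.

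The branches that leave glycolysis held single lower genes. In the pentose phosphate pathway 7 of 10 kept genes were lower (70%, against 52.8% of all kept genes), with a median of -0.06. Taldo1, transaldolase, was 1.56-fold lower, with G6pd2 at 0.21 and Rpe at -0.20. Of 13 kept genes for gluconeogenesis, hexosamine and serine synthesis 9 were lower (69.2%, median -0.06). Psph and Phgdh, the last and first enzymes of serine synthesis, differed by -0.66 and -0.48, and Gfpt2, the entry enzyme of hexosamine synthesis, by -0.39. Glycogen and galactose genes had a median of -0.05, with 11 of 17 lower (64.7%) and 0 at 1.5-fold. Among them Gys1, glycogen synthase, differed by -0.47, Pgm2l1 by -0.46 and Ppp1r3b, a glycogen-targeting phosphatase subunit, by -0.42.

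**Figure D4:**
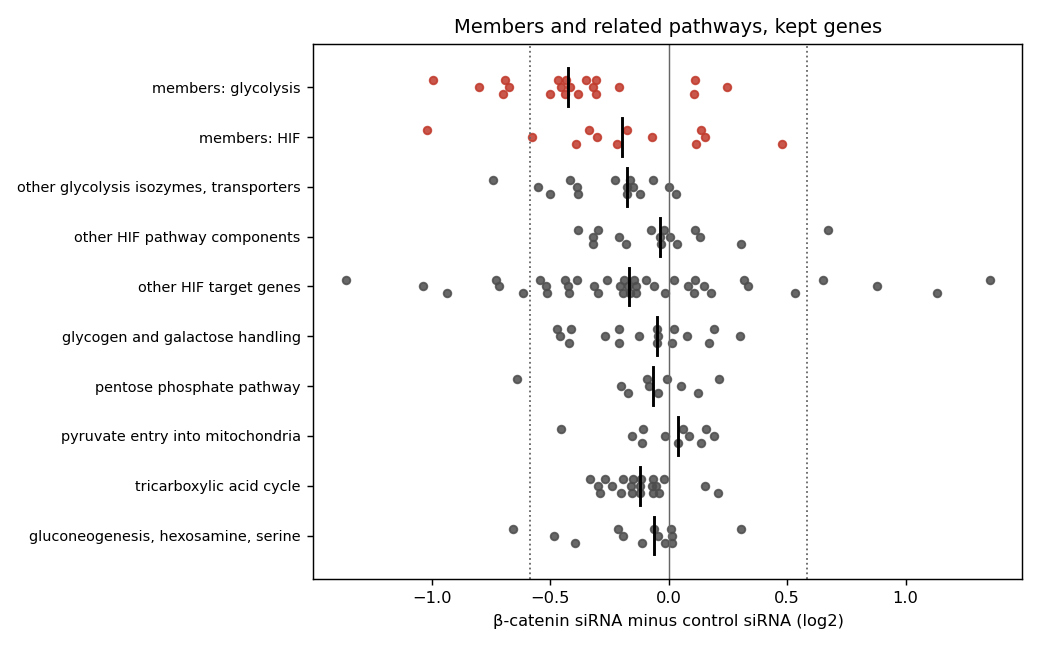
Difference, β-catenin siRNA minus control siRNA on the log2 scale, of kept members (red) and of kept genes in 8 related lists (grey), with a black bar at each median and dotted lines at 1.5-fold. The median of the glycolysis members is -0.43 and that of the HIF members -0.20 (-0.07 with no level filter), the 8 related medians run from -0.17 to 0.04, and other HIF targets spread from -1.36 to 1.36.

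HIF targets outside the listed members spread widely in both directions. Among 40 kept genes there were 27 with lower values (67.5%, against 52.8% of all kept genes), with a median difference of -0.17. At least 1.5-fold lower were 6 (15%, against 1.84% of all kept genes), and 4 were at least 1.5-fold higher (10%, against 2.76%). Kdr and Pgf passed the level filter only on the control array, so they had to count as lower. Trf passed only on the β-catenin siRNA array, so it had to count as higher. Edn1, the vasoconstrictor endothelin-1, had log2 values of 8.14 and 6.78 with control and β-catenin siRNA, or 2.57-fold lower. Cxcl12, a chemokine of stromal cells, had 6.76 and 8.12, or 2.56-fold higher, and Trf, the iron carrier transferrin, 4.91 and 6.04, its control value being under the level filter. The other genes past 1.5-fold are named after their values were seen. Stc2, a secreted glycoprotein, was 2.05-fold lower, Ak4, a mitochondrial adenylate kinase, 1.91-fold, Ddit4, an inhibitor of mTORC1, 1.66-fold, the clock-linked repressor Bhlhe40 1.64-fold and Tgfb3 1.53-fold. The value of Ak4 was that of the probe set with the higher mean of its 2. Angptl4, an inhibitor of lipoprotein lipase, was 1.84-fold higher, and Rora, a nuclear receptor, 1.57-fold. Several of these, such as Edn1, Cxcl12 and Tgfb3, are also controlled by many other pathways.

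Components of the HIF machinery differed little except for one. Of 16 kept genes 10 were lower (62.5%, against 52.8% of all kept genes) and 6 higher, with a median of -0.04. At least 1.5-fold higher were 6.25% of them, against 2.76% of all kept genes. Cited2, which competes with HIF α subunits for the coactivators CBP and p300, had log2 values of 9.05 and 9.72 with control and β-catenin siRNA and was the list's only gene past 1.5-fold (1.59-fold higher). Vhl, the substrate receptor of the ligase that destroys HIF α subunits, had values of 7.12 and 6.73 (difference -0.38), and Eloc, an adaptor in that ligase, 9.91 and 9.60 (difference -0.32). The stable partner Arnt had a difference of -0.03, named after its value was seen.

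For members with several probe sets, the choice of probe set turned the sign only for Hk1. Of the 7 such members, the probe set with the highest mean had neighbours in identifier order that lay on another chromosome than the gene in all 7 cases. The probe set with neighbours on the gene's own chromosome gave -0.52 for Bnip3, 0.08 for Bnip3l, -0.35 for Higd1a, -0.44 for Pgam1, -0.32 for Pgk1 and -0.23 for Pkm, each with the sign reported above. For Higd1a that probe set read 4.69 and 4.34, under the level filter, which leaves 31 kept members. The 3 probe sets of Pgk1 are not independent measurements, since 2 of them have identical values on both arrays. The Pkm probe set with the highest mean, like that of Hk1, was not annotated through a RefSeq transcript. With the other Pkm probe set (-0.23), Pkm fell short of the decrease of 0.25 counted above.

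**Figure D5:**
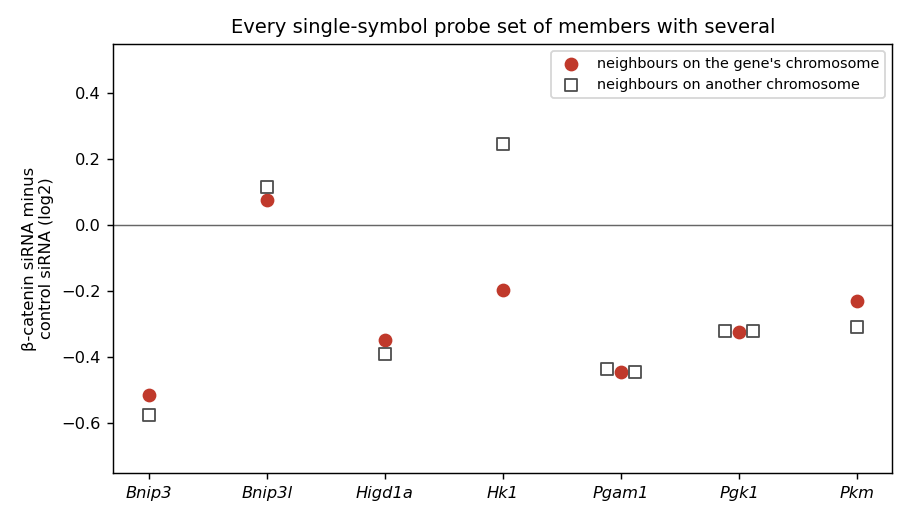
Difference, β-catenin siRNA minus control siRNA on the log2 scale, for every probe set annotated to 1 symbol of the 7 members with several, as filled circles where neighbouring probe sets lie on the gene's chromosome and open squares where they lie on another. The 2 kinds lie within 0.08 of each other for every gene but Hk1, where they are 0.25 and -0.20.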

How the data were processed

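Expression was measured in 2 samples, 1 array per group, from 300 ng of total RNA each. The deposited values are log2 values from robust multi-array average (RMA), which corrects background, equalises the arrays' distributions and summarises probe sets, per the submitters' processing notes. For the software, its version and the genome build, the sources used here give nothing, and the log2 scale was judged from the range, 0.485 to 13.5. RMA removes overall differences in RNA yield and shrinks differences of dim probe sets.

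Of 28944 probe sets, 21789 had 1 gene symbol in the platform annotation. The 1621 with several symbols and the 5534 with none were left out. Identifiers of 21698 were updated through RefSeq (GRCm38.p6). The probe set with the highest mean stood for each gene, and a gene was kept if its higher value reached 5.13. Differences were computed with pandas 2.3.3 and counted at 1.5-fold and at 2-fold. The 1.5-fold rule was run only on simulated differences of 2-fold or more, which says nothing of smaller differences or of false calls. No p-value was computed, since 1 array per group leaves no replicate error.

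Members, lists and alternatives were chosen with earlier results of these data known. Every member could be named, Ctnnb1 as the target, and of each related list the 3 kept genes with the largest absolute difference and all kept isozymes. Motifs were searched in the 250 bases before annotated starts. Alternatives changed the level filter, probe set, centring and shared probe sets.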

Additional observations from a re-analysis of the deposited data

How the results depend on the processing

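Of the 7 alternatives, 6 were planned and 1, the probe set near its own gene, was added after seeing the data. Under all 7, Ctnnb1 and the median differences of all members, of glycolysis members and of HIF members stayed negative, but the HIF median moved from -0.20 to -0.07 with no level filter and to -0.12 with the stricter one. The number of members at least 1.5-fold lower was 6, and it was 5 with the stricter filter, where both values had to reach the 60th percentile of gene means, since Egln3 was lost (with Higd1a, Pdk1 and Pfkfb4). Members at least 1.5-fold higher numbered 0, or 1 with no level filter, which admits the dim Epas1. Genes of all 8 related lists at least 1.5-fold higher numbered 5, or 3 with the stricter filter. Those at least 1.5-fold lower numbered 9, or 6 with the stricter filter. They numbered 8 with lowess centring and 8 with the probe set near its own gene. Of those 9 genes, only Ak4 has more than 1 probe set. Hk1 reversed, from 0.25 to -0.20, with the probe set near its own gene, and read 0.03 with the mean of its probe sets or with shared probe sets admitted. Counts over all kept genes moved with the filter, from 188 lower and 281 higher to 469 and 444 with no filter and 112 and 136 with the stricter one. Leaving out a replicate was not possible with 1 array per group. No paired analysis was possible because each group has a single array. Precision is limited by the number of arrays, and detection calls were not used here.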

Other observations

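Beyond the members, the placement of probe sets touched many genes. Of 997 genes with more than 1 probe set and a known chromosome, 272 had a highest probe set whose 15 neighbours on each side in identifier order lay mostly on another chromosome than the gene, whereas 99.7% of 18922 genes with a single probe set had neighbours on their own. For 266 of the 272 another probe set had neighbours on the gene's chromosome. Of the 250 of these that passed the level filter, the 2 probe sets differed in the sign of the difference for 62, and Hk1 was the only one of the 7 members concerned.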
